A study of Mus musculus with 4 samples.

Results

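The 10 genes described here, Spp1, Gpnmb, Lpl, Itgax, Clec7a, Igf1, Lgals3, Cd9, Cd63 and Apoe, are the ones by which axon-tract-associated and lipid-associated microglia are commonly recognised. They were chosen by symbol from a fixed list of names, though with earlier results of these data known. All 10 were found among the 21981 genes of the deposited tables, all had a count in every library, and all 10 passed the filter on low counts that left 15951 genes for testing. RNA was sequenced from microglia of the cerebral cortex of untreated mouse embryos at embryonic day 16. The 2 control libraries (control 1 and control 6) carried the genotype Bach1 fl/fl, in which the Bach1 gene is flanked by recombination sites. The 2 knockout libraries (cKO 2 and cKO 5) carried the genotype Bach1 cKO, a conditional deletion whose driver line is named only as Cx3. The product of Bach1 is a repressor of transcription that binds heme, and the study asked what its loss does in microglia. How the microglia were isolated, whether each library came from 1 embryo or from a pool, and whether the libraries came from separate animals is not stated in the labels. Every p-value computed here for cKO against control therefore measures only the spread between these 4 samples, which may be technical.

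Microglia are the resident macrophages of the brain. Around birth, a subset gathers in developing white matter and along axon tracts, where it engulfs debris and cells and takes on a program rich in lysosomal, lipid-handling and secreted products. Much of the same program reappears in microglia of the aged or diseased brain and in lipid-laden macrophages of other tissues, where the lipid-sensing receptor TREM2 promotes it.

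The libraries held between 17233115 and 19305078 reads, so that a count of 3 reads was worth 0.155 to 0.174 CPM, the unit that divides each count by its library's total. Library cKO 2 stood apart in its cell type markers. The 24 microglial markers took 3.23% of all reads in control 1 and 5.07% in control 6, beside 1.19% and 4.52% in cKO 2 and cKO 5, and none of them was at 0 in any library. All 24 were lowest in cKO 2 (25.2% of all genes tested were). The example Csf1r, the receptor microglia need to survive, measured 5365 and 7212 CPM in control libraries, against 1936 (cKO 2) and 6621 (cKO 5). The summed level of 16 excitatory neuron markers was 1933 and 1226 CPM in control libraries, against 4835 (cKO 2) and 1220 (cKO 5). Of the 16, 13 were highest in cKO 2 (47.8% of all genes tested were) and 2 were lowest there. Neurod6 measured 435 and 134 CPM in control libraries, against 1653 (cKO 2) and 95.4 (cKO 5). Mef2c, a large part of the sum in control 6 and cKO 5, ran the other way. It measured 442 and 565 CPM in control libraries, against 271 (cKO 2) and 584 (cKO 5). The summed level of 12 endothelial markers was high in control 1 and cKO 2 (6298 and 4680 CPM) and low in control 6 and cKO 5 (1331 and 882 CPM). Bach1 itself measured 45.8 and 21.6 CPM in control libraries, beside 29.98 and 35.4 CPM for cKO 2 and cKO 5, so that both cKO libraries lay between the controls and the gene does not check the labels. In bulk RNA of this kind, fewer microglia and less of an RNA per microglial cell cannot be told apart.

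All 10 genes had their lowest level in library cKO 2, and 8 of the 10 had their highest level in the other knockout library, cKO 5. The exceptions, Spp1 and Cd9, were highest in control 6. For Itgax (19.9 against 19.7 CPM) and Igf1 (193 against 185 CPM), the exact 95% binomial intervals of cKO 5 and control 6 overlapped. Over all genes tested, 25.2% were lowest in cKO 2 and 20.1% were highest in cKO 5. Within the knockout genotype the level in cKO 5 was between 2.83 times (Lgals3) and 5.47 times (Itgax) that in cKO 2, while control 6 was between 0.863 times (Gpnmb) and 1.51 times (Cd63) control 1. None of the 10 genes had both cKO libraries on one side of both controls, an arrangement found in 16% of all genes tested. In edgeR's quasi-likelihood test of cKO against control, none of the 10 genes passed, and neither did any other gene (0% of the genes tested). The edgeR test gave 49 genes an unadjusted p under 0.05, and DESeq2 and limma-voom, which also called 0 genes, gave 74 and 37. The log2 fold changes were negative for 8 of the 10 genes and positive for 2, with a median of −0.22, beside a median of 0.03 over all genes tested, of which 8425 were positive and 7526 negative. The edgeR adjusted p was 0.9997 for each of the 10.

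**Figure D1:**
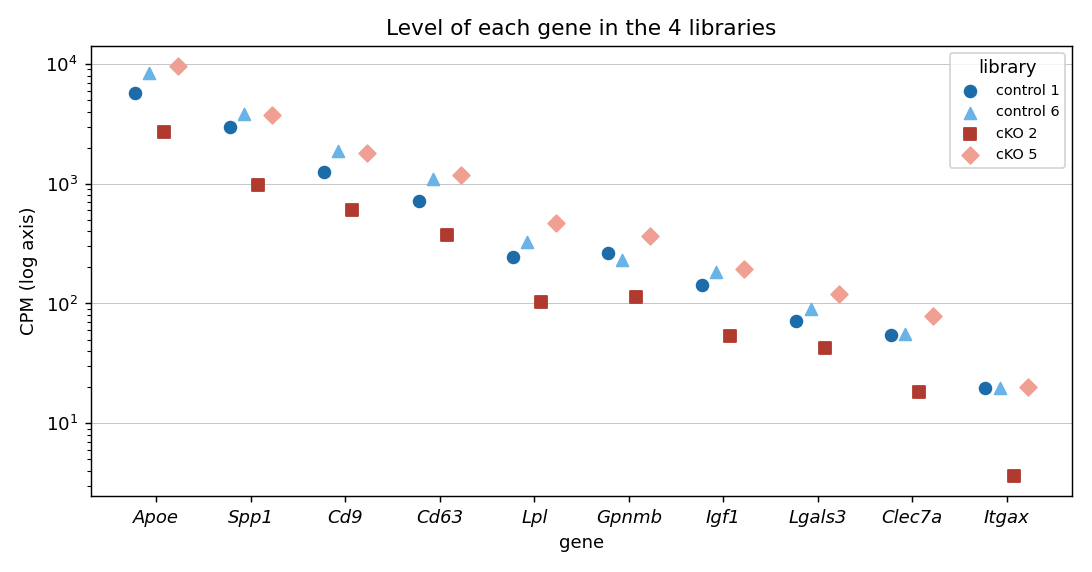
CPM on a log axis of the 10 genes (x axis, from the most to the least abundant) in each library; each point is 1 library, blue for control and red for cKO. The dark red squares of cKO 2 are the lowest point of every gene, while the cKO 5 diamonds lie above both controls for 8 of the 10.

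The secreted proteins are described first. Spp1 encodes osteopontin, a secreted phosphoprotein that binds integrins and CD44 and is the best known product of axon-tract microglia. It lies on the plus strand of chr5:104435118-104441050 (GRCm38, ENSMUSG00000029304). Spp1 measured 2949 CPM in control 1 and 3835 in control 6, beside 974 and 3736 CPM in cKO 2 and cKO 5. The 2 controls and cKO 5 were thus close to each other and cKO 2 was low, so the genotypes overlapped. The means were 3392 ± 626 CPM in control and 2355 ± 1953 in cKO (n = 2 each, SD), giving a log2 fold change of −0.52 ± 0.94 (SE; edgeR adjusted p 0.9997). A second annotated gene on the same strand, Gm42793, overlaps Spp1 and held at most 101 reads, against at least 16852 for Spp1.

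The 250 bases upstream of the RefSeq transcription starts (GRCm38.p6) of the 10 genes were searched on both strands for 4 short motifs. Windows were found for 9 of the genes, 13 windows in all. The motif GAGGAAG, a core of sites bound by the macrophage factor PU.1, was in 3 of the 13 windows and in 10.6% of 32851 promoters. The motif TGANTCA was in 2 of the 13 windows and in 6.75% of all promoters. It includes the AP-1 site (TGACTCA or TGAGTCA), which also forms part of the element read by BACH1. The Itgax match, TGAGTCA, is that site, and the Igf1 match, TGAATCA, is not. The antioxidant response element core TGACNNNGC and the MiT/TFE E-box CACGTG were in none of the 13 windows, and in 10.2% and 6.02% of all promoters. Where motifs overlap, each was counted by itself. These matches are descriptions of the letters only. The Spp1 window is shown because Spp1 is the gene by which the axon-tract state is usually recognised. It covers chr5:104434861-104435110 on the plus strand, 5′ to 3′, with the GAGGAAG match in capitals, its first base 113 bases before the start (position −113).
Spp1: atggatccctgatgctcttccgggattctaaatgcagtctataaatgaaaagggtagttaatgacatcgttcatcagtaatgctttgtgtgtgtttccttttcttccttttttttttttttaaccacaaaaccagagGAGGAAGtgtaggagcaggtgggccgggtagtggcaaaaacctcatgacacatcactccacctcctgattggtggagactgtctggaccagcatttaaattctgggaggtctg

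Igf1 encodes insulin-like growth factor 1, a trophic factor that microglia of developing white matter supply to neurons and to myelinating cells. It lies on the plus strand of chr10:87858265-87937042 (ENSMUSG00000020053). Igf1 measured 141 CPM in control 1 and 185 in control 6, beside 53.8 and 193 CPM in cKO 2 and cKO 5. The pattern was the same as for Spp1 except that cKO 5, not control 6, was highest, and the genotypes overlapped. The means were 163 ± 30.7 CPM in control and 123 ± 98.4 in cKO (n = 2 each, SD), giving a log2 fold change of −0.40 ± 0.79 (SE; edgeR adjusted p 0.9997). The antisense gene Igf1os overlaps it and held between 6 and 62 reads, against 931 to 3724 for Igf1. The upstream window of Igf1 lies within an annotated exon, and held TGAATCA at −37 and GAGGAAG at −60. The RefSeq start it precedes lies 2846 bases inside the annotated gene, and no GENCODE transcript start was found there.

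Apoe encodes apolipoprotein E, the main lipid carrier secreted by glia, and was the most abundant of the 10 genes (minus strand, chr7:19696109-19699188, ENSMUSG00000002985). It measured 5729 CPM in control 1 and 8419 in control 6, beside 2681 and 9547 CPM in cKO 2 and cKO 5. The 2 cKO libraries held the lowest and the highest of the 4 values, with both controls between them. The means were 7074 ± 1902 CPM in control and 6114 ± 4855 in cKO (n = 2 each, SD), giving a log2 fold change of −0.21 ± 1.02 (SE; edgeR adjusted p 0.9997). Astrocytes and radial glia also make apolipoprotein E. Their 15 markers summed to 908 and 575 CPM in control libraries, against 1529 (cKO 2) and 503 (cKO 5). Of the 15, 14 were highest in cKO 2 (47.8% of all genes tested were). The exception, Glul, a large part of the sum in control 6 and cKO 5, was lowest there. It measured 246 and 354 CPM in control libraries, against 146 (cKO 2) and 306 (cKO 5). The part of these cells in the level of Apoe was not tested.

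Lgals3 encodes galectin-3, a secreted lectin that binds glycans on cell surfaces and on damaged lysosomes (plus strand, chr14:47367751-47386160, ENSMUSG00000050335). It measured 70.9 CPM in control 1 and 89.1 in control 6, beside 42.3 and 119.7 CPM in cKO 2 and cKO 5. Both controls again lay between the cKO libraries. The means were nearly equal, at 79.99 ± 12.9 CPM in control and 80.97 ± 54.7 in cKO (n = 2 each, SD), giving a log2 fold change of 0.01 ± 0.68 (SE; edgeR adjusted p 0.9997).

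Lpl encodes lipoprotein lipase, the enzyme that frees fatty acids from triglyceride-rich lipoproteins (plus strand, chr8:68880491-68907448, ENSMUSG00000015568). It measured 242 CPM in control 1 and 323 in control 6, beside 102 and 472 CPM in cKO 2 and cKO 5. Of the 10 genes, Lpl exceeded control 1 by the largest ratio in cKO 5 and yet was below both controls in cKO 2. The means were 283 ± 57.0 CPM in control and 287 ± 261 in cKO (n = 2 each, SD). The log2 fold change of 0.04 ± 0.89 (SE; edgeR adjusted p 0.9997) averaged 2 cKO libraries that lay far apart.

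Among the membrane receptors, Itgax encodes integrin alpha X (CD11c), which marks a microglial subset of developing white matter and of the diseased brain and pairs with the beta 2 integrin chain (plus strand, chr7:128129547-128150657, ENSMUSG00000030789). It was the least abundant of the 10, at 19.6 CPM in control 1 and 19.7 in control 6, beside 3.64 and 19.9 CPM in cKO 2 and cKO 5. The libraries other than cKO 2 differed by less than counting error. The value in cKO 2 rested on 63 reads and had an exact 95% binomial interval of 2.80 to 4.66 CPM, which covers counting error only. The means were 19.7 ± 0.07 CPM in control and 11.8 ± 11.5 in cKO (n = 2 each, SD). The log2 fold change, −0.71 ± 0.96 (SE; edgeR adjusted p 0.9997), was the most negative of the 10. The upstream window of Itgax is shown because it held the TGANTCA match of this gene. It covers chr7:128129300-128129549 on the plus strand, 5′ to 3′, with TGAGTCA in capitals at −56.
Itgax: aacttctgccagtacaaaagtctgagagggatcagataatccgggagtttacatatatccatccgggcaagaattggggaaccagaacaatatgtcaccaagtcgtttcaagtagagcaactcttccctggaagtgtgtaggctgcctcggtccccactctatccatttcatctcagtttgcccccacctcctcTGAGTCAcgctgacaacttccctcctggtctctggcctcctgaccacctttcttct

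Clec7a encodes dectin-1, a lectin receptor that signals through the kinase SYK. It lies on the minus strand of chr6:129461591-129472779 (ENSMUSG00000079293), where the deposited annotation gives its type as a polymorphic pseudogene. Clec7a measured 54.1 CPM in control 1 and 56.1 in control 6, beside 18.2 and 78.8 CPM in cKO 2 and cKO 5. The controls were close together, with 1 cKO library below and 1 above them. The means were 55.1 ± 1.35 CPM in control and 48.5 ± 42.9 in cKO (n = 2 each, SD), giving a log2 fold change of −0.16 ± 0.84 (SE; edgeR adjusted p 0.9997).

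Gpnmb encodes a transmembrane glycoprotein of lysosomes and the cell surface that is high in lipid-laden macrophages (plus strand, chr6:49036546-49070929, ENSMUSG00000029816). It measured 266 CPM in control 1 and 229.6 in control 6, beside 114 and 364 CPM in cKO 2 and cKO 5. Gpnmb was the only one of the 10 that was higher in control 1 than in control 6. The means were 248 ± 25.9 CPM in control and 239 ± 177 in cKO (n = 2 each, SD), giving a log2 fold change of −0.04 ± 0.72 (SE; edgeR adjusted p 0.9997).

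Cd9 and Cd63 encode tetraspanins, membrane proteins that organise other receptors and sort cargo to endosomes and exosomes, and both are also made by many other cell types. Cd9 lies on the minus strand of chr6:125460266-125494791 (ENSMUSG00000030342) and measured 1254 CPM in control 1 and 1883 in control 6, beside 599 and 1809 CPM in cKO 2 and cKO 5. Cd63 lies on the plus strand of chr10:128900989-128912822 (ENSMUSG00000025351) and measured 719.6 CPM in control 1 and 1087 in control 6, beside 373 and 1179.7 CPM in cKO 2 and cKO 5. For both genes control 6 and cKO 5 were high and close to each other, control 1 was lower, and cKO 2 was lowest. The means of Cd9 were 1569 ± 445 CPM in control and 1204 ± 855 in cKO (n = 2 each, SD), giving a log2 fold change of −0.39 ± 0.82 (SE; edgeR adjusted p 0.9997). The means of Cd63 were 903 ± 259 CPM in control and 776 ± 570.3 in cKO (n = 2 each, SD), giving a log2 fold change of −0.23 ± 0.80 (SE; edgeR adjusted p 0.9997). Genes annotated on the opposite strand overlap Cd9, and whether reads were counted by strand is not given. The window of Cd63 is shown because it held the same PU.1 core as Spp1, read on the other strand. It covers chr10:128909095-128909344 on the plus strand, 5′ to 3′. The start it precedes lies 8356 bases inside the annotated gene, and the capitals mark CTTCCTC, the reverse complement of GAGGAAG, at −60.
Cd63: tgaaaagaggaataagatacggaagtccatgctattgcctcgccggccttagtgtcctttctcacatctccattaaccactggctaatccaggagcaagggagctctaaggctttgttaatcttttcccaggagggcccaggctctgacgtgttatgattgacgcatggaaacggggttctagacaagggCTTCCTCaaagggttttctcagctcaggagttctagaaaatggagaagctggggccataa

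**Figure D2:**
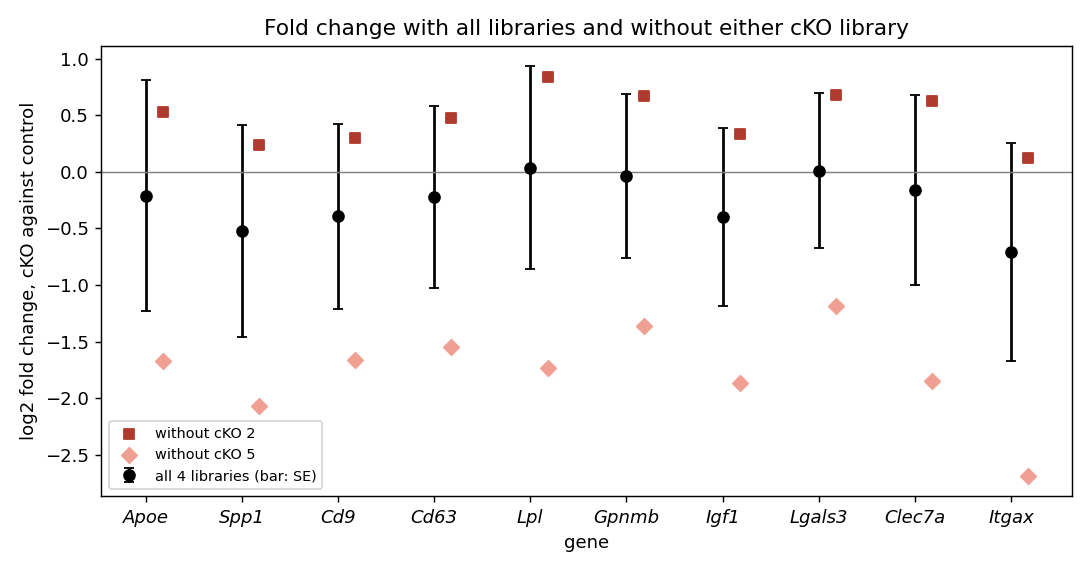
Log2 fold change of cKO against control (y axis) for each of the 10 genes (x axis): black points with SE bars use all 4 libraries, red squares leave out cKO 2 and pink diamonds leave out cKO 5. Every square lies above 0 and every diamond below −1, while the black points lie between −0.71 and 0.04.

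The direction of the contrast rested on which knockout library was used. Without cKO 2, all 10 log2 fold changes were positive, from 0.12 for Itgax to 0.835 for Lpl. Without cKO 5, all 10 were negative, from −1.18 for Lgals3 to −2.68 for Itgax. In both cases no gene of the whole table passed (edgeR; smallest adjusted p 0.9989 without cKO 2 and 0.4681 without cKO 5). The lone cKO library was there assumed to vary like the controls. Without control 1, all 10 were negative, and without control 6, 5 were positive and 5 negative.

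The authors' own pairwise fold changes are ratios of the same CPM values, so they repeat the split between the cKO libraries and are no separate evidence for it. The authors called a gene when its deposited p was under 0.05 and its absolute log2 change at least 1. Each deposited p compares 1 cKO library with 1 control library, so it holds no spread between replicates. The 4 pairs share their libraries, so they are set side by side and are not independent. In the authors' deposited table of cKO 2 against control 1, 8 of the 10 genes were called lower (11.6% of the genes in that table), with log2 changes from −0.74 for Lgals3 to −2.43 for Itgax. The 2 not called in the authors' deposited table were Lgals3 and Cd63. In the authors' deposited table of cKO 2 against control 6, all 10 were called lower (13.4% of its genes), from −1.01 for Gpnmb to −2.44 for Itgax. In the authors' deposited table of cKO 5 against control 1, none was called higher (8.79% of its genes were), with log2 changes from 0.02 for Itgax to 0.96 for Lpl. In the authors' deposited table of cKO 5 against control 6, none was called higher (9.23% of its genes were), with log2 changes from −0.06 for Cd9 to 0.66 for Gpnmb.

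Per unit of transcript length, the 10 genes spanned a wide range. Mean levels over the 4 libraries, as reads per kilobase of merged exons and library total (RPKM), were 3084 for Apoe, 1743 for Spp1, 678 for Cd9 and 228 for Cd63. The order of these 4 was the same in every library and when the length of the principal transcript was used instead. Lgals3 (43.3), Gpnmb (37.4), Lpl (27.2), Clec7a (19.6) and Igf1 (14.5) followed on the merged-exon RPKM scale. These 5 changed places with principal-transcript length, with which all of them lay between 56.7 and 85.6 CPM per kilobase, so their order is not settled. Itgax was lowest by either length, at 3.27 RPKM on merged exons.

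Set against microglial RNA, the low library largely lost its difference. Reads of each gene were divided by the summed reads of the 24 microglial markers in the same library and given per 1000 marker reads. Spp1 then measured 91.4 in control 1 and 75.6 in control 6, beside 81.8 and 82.6 in cKO 2 and cKO 5, so that the 2 cKO libraries, 3.84 times apart in CPM, differed by 1.01 times and lay between the controls. Igf1 measured 4.38, 3.64, 4.52 and 4.27 in the same order, again with overlapping genotypes. Over the 10 genes the highest library was between 1.21 times (Spp1) and 2.12 times (Gpnmb) the lowest, and the spread between replicates (pooled SD) was 0.26 on the log2 scale, beside 0.96 for log2 CPM. On this scale Gpnmb, Igf1, Lgals3, Cd9, Cd63 and Apoe were highest in cKO 2. Itgax was still lowest in cKO 2, at 0.306 per 1000 marker reads, against 0.608 and 0.389 in the controls and 0.440 in cKO 5.

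On this scale 5 of the 10 genes were higher in both cKO libraries than in both controls, an arrangement found in 12.6% of all genes tested, and none was lower in both. Apoe measured 177.5 and 166 per 1000 marker reads in control libraries, beside 225 and 211 for cKO 2 and cKO 5. Cd63 measured 22.3 and 21.4 in control libraries, beside 31.4 and 26.1 for cKO 2 and cKO 5. Lgals3 measured 2.195 and 1.76 in control libraries, beside 3.55 and 2.65 for cKO 2 and cKO 5. Cd9 and Lpl were the other two, with Cd9 only slightly separated (38.8 in control 1 against 40.01 in cKO 5). This count depended on the markers. All 24 of them had negative log2 fold changes in the edgeR fit, as had 7526 of the 15951 genes tested. Their median was −0.51, beside −0.22 for the 10 genes, so the denominator was itself lower in cKO. None of the 24 passed the adjusted p. With a shorter denominator, the C1q genes, Tyrobp, Laptm5, Aif1, Spi1 and Ptprc, none of the 10 was separated. Apoe then measured 549.96 and 432 in control libraries, beside 565 and 470.2 for cKO 2 and cKO 5 per 1000 reads. Within that shorter list, control 6 was 5.91 times control 1 for C1qc and 4.35 times for Spi1. For the rest of that list it was between 1.07 times (Ptprc) and 1.91 times (Aif1). The count without C1qc and Spi1 was not tested. Cx3cr1, the marker with the most negative log2 fold change of the 24 (−1.43), measured 4333 and 5158 CPM in control libraries, beside 747.0 and 2756 for cKO 2 and cKO 5, and without it in the denominator 4 genes were separated. Leaving out control 1 made the count 9, but both cKO libraries then had to exceed control 6 only. The share of all genes tested with that easier arrangement was not computed. The median log2 ratio of cKO to control over the 10 genes was 0.30, against 0.85 over all genes tested. It was 0.21 without Cx3cr1, 0.24 with the geometric mean of the markers and 0.04 with the shorter denominator.

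**Figure D3:**
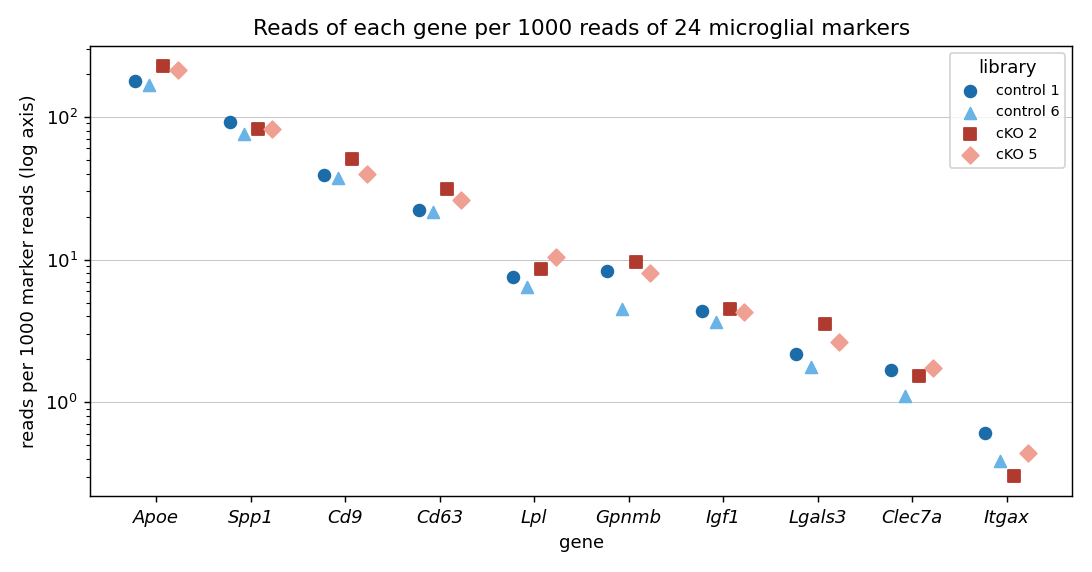
Reads of each of the 10 genes (x axis) per 1000 reads of the 24 microglial markers in the same library (y axis, log scale); each point is 1 library. The libraries lie within 2.12 times of each other for every gene, and for Apoe, Cd9, Cd63, Lpl and Lgals3 both red cKO points lie above both blue control points.

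The genes whose products work with these 10 were examined as lists, some of which share genes, and Trem2 and Tyrobp are also among the 24 microglial markers. In every list, 0 genes passed edgeR's adjusted p. Among 37 other genes of the axon-tract and disease-associated program, 34 were lowest in cKO 2 (25.2% of all genes tested were). Their median log2 fold change was −0.30 (8 positive, 29 negative). The cathepsin gene Ctsb, a lysosomal protease, measured 11890.3 and 18628 CPM in control libraries, against 5484 (cKO 2) and 17812 (cKO 5). Grn, the lysosomal progranulin gene, measured 2866 and 3682 CPM in control libraries, against 1192 (cKO 2) and 4360 (cKO 5). Fth1, the ferritin heavy chain that stores iron, varied less, at 3256 and 3235 CPM in control libraries, against 2407 (cKO 2) and 4234 (cKO 5).

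Most partners of the lipid genes were lowest in cKO 2. Of 34 genes of lipid uptake, storage and export, 21 were lowest in cKO 2 (25.2% of all genes tested were) and 5 were highest there (47.8% of all genes tested were), and the median log2 fold change was −0.23 (12 positive, 22 negative). Lrp1, a receptor that takes up apolipoprotein E, measured 614 and 939.8 CPM in control libraries, against 290.3 (cKO 2) and 1059 (cKO 5), in the same order as Apoe itself. Npc2, which moves cholesterol out of lysosomes, measured 1434 and 1933 CPM in control libraries, against 712 (cKO 2) and 2003 (cKO 5). Vldlr, a lipoprotein receptor of neurons named here after its values were seen, ran the other way, at 7.38 and 4.12 CPM in control libraries, against 32.2 (cKO 2) and 3.99 (cKO 5).

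For each of the next lists, the count lowest in cKO 2 stands beside a share of 25.2% over all genes tested. Among 13 integrin and osteopontin partners, 10 were lowest in cKO 2, with a median log2 fold change of −0.24. Itgb2, the chain with which integrin alpha X pairs, measured 171 and 222 CPM in control libraries, against 83.9 (cKO 2) and 249 (cKO 5). Of 14 genes of Clec7a and TREM2 signalling, 13 were lowest in cKO 2, with a median of −0.32 (1 positive, 13 negative). The receptor gene Trem2 measured 145 and 260.4 CPM in control libraries, against 67.0 (cKO 2) and 189.9 (cKO 5), and Fcer1g, an adaptor that passes signals from surface receptors, measured 214 and 394, then 109 and 398. All 8 MiT/TFE factors and lysosomal regulators were lowest in cKO 2, with a median of −0.27, although Mcoln1, a lysosomal calcium channel, stayed between 46.04 and 50.9 CPM in all 4 libraries. Of 14 tetraspanins and their partners 9 were lowest in cKO 2 (median −0.37), and of 6 galectin genes 4 were (median −0.13). Cd53, a leukocyte tetraspanin, measured 869 and 1544 CPM in control libraries, against 336 (cKO 2) and 1341 (cKO 5).

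Other genes of the IGF axis did not have their low library in common with Igf1. None of the 14 tested was lowest in cKO 2 (25.2% of all genes tested were). Of the 14, 8 were highest in cKO 2, near the share of 47.8% over all genes tested, and 9 were lowest in cKO 5, against 35.5% of all genes tested. The median log2 fold change was −0.10, with 6 positive and 8 negative. Igf1r, the receptor for insulin-like growth factor 1, measured 126 CPM in control 1 and 53.7 in control 6, beside 103 and 52.4 CPM in cKO 2 and cKO 5. Igf2, the related growth factor, measured 130.5, 19.4, 79.1 and 9.79 CPM in the same order. Both were thus high in control 1 and cKO 2 and low in control 6 and cKO 5, as were the summed endothelial markers and those of pericytes and meningeal fibroblasts (3631, 707, 3306 and 266 CPM). In Igf1 itself, control 6 and cKO 5 were the high libraries.

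**Figure D4:**
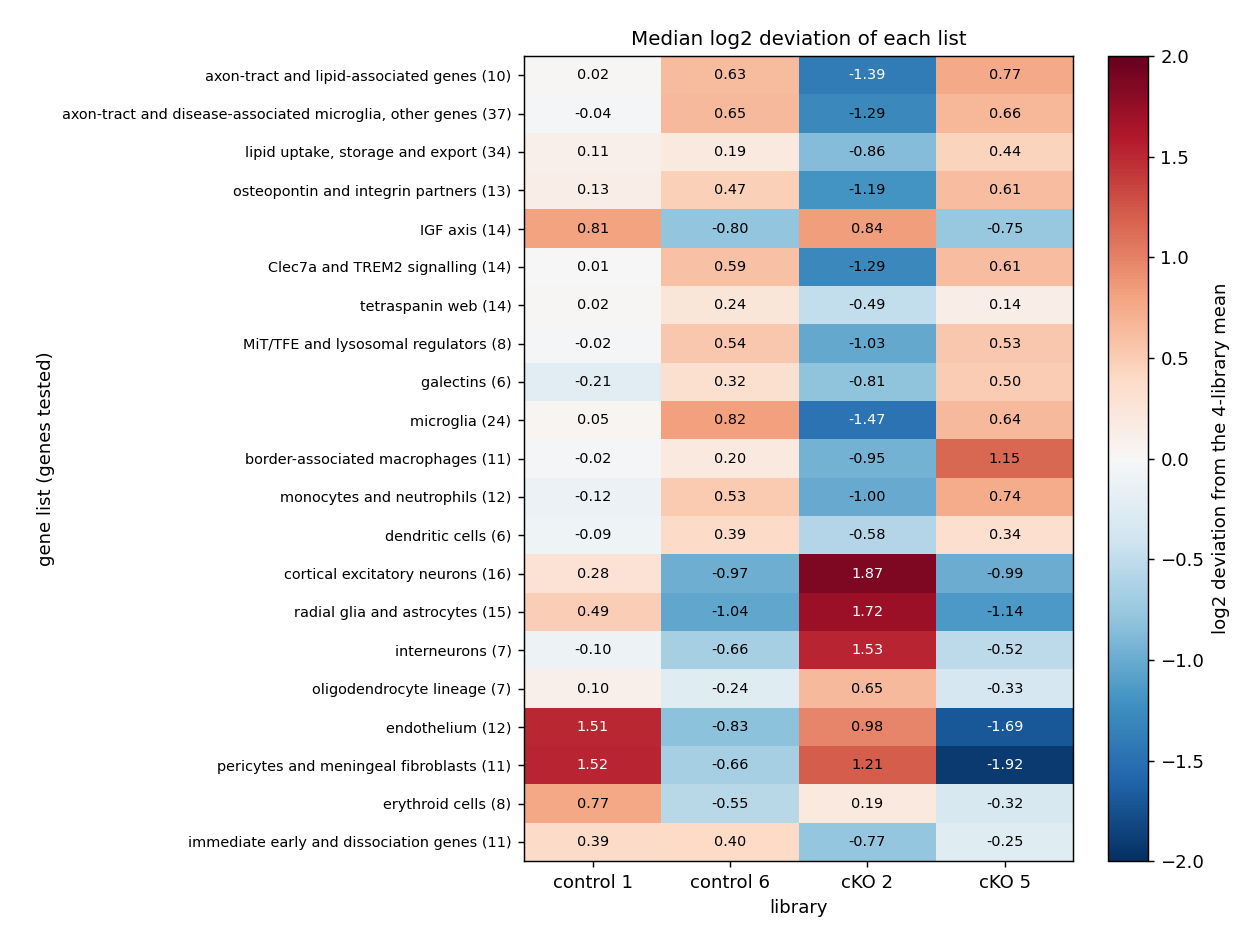
Median log2 deviation of each gene list (rows, with the number of genes tested) from its mean over the 4 libraries (columns), red for above and blue for below. The first row, the 10 genes, reads 0.02, 0.63, −1.39 and 0.77, close to the row of microglia (0.05, 0.82, −1.47 and 0.64) and unlike those of the IGF axis, neurons and vessels.

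Other cell types whose RNA the libraries could hold were read from marker lists. The 10 genes had a median log2 deviation of 0.02 and 0.63 in controls 1 and 6, beside −1.39 and 0.77 in cKO 2 and cKO 5. The 24 microglial markers gave 0.05, 0.82, −1.47 and 0.64 in the same order. Of these 24, 5 were highest in cKO 5, near the share of 20.1% over all genes tested. Border-associated macrophages, which lie in the meninges and around vessels and also carry Spp1, Apoe and Cd63, had all 11 markers highest in cKO 5 (20.1% of all genes tested were). Their summed levels were 953 and 1214 CPM in control libraries, against 408 (cKO 2) and 1834 (cKO 5). Their median log2 deviations were −0.02 and 0.20 in controls 1 and 6, beside −0.95 and 1.15 in cKO 2 and cKO 5. Their marker Mrc1 measured 165.5 and 204 CPM in control libraries, against 85.9 (cKO 2) and 370.3 (cKO 5), and 1 of the 11 markers was at 0 in control 6. The 12 markers of monocytes and neutrophils, cells that can also carry Itgax and Clec7a, summed to 168 and 208 CPM in control libraries, against 119.9 (cKO 2) and 278 (cKO 5), and none was at 0. The 6 dendritic cell markers listed for every library, of 8 sought, summed to at most 25.6 CPM, and 1 of them was at 0 in control 6. The part of these cells in the values of the 10 genes was not tested. Of 11 immediate early and dissociation genes, 6 were below both controls in both cKO libraries (7.64% of all genes tested were), with summed levels of 1241 and 1061 CPM in control libraries, beside 717 and 711 for cKO 2 and cKO 5. None of the 10 genes had that arrangement.

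The genes most like the 10 were sought among 4265 genes with a mean of at least 50 CPM, by the root mean square distance between a gene's log2 deviations in CPM over the 4 libraries and the median deviations of the 10. The closest was Vav1, a signalling protein of blood cells, with a distance of 0.0225 and with 322 and 426 CPM in control libraries, against 129 (cKO 2) and 466 (cKO 5). Sash3, Rps6ka1, Csf2rb, C3ar1, Coro1a, Grn and Cd84 followed at distances of 0.0344 to 0.0420. Of the 10 genes themselves, Igf1 was closest to their common pattern, at 0.0554, and Itgax furthest, at 0.364. With 4 libraries this likeness is a description only, and all of these values share the same library depths.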

How the data were processed

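RNA-seq tables of 4 mouse microglia libraries, 2 control and 2 Bach1 cKO, were analysed, grouped and numbered by their sample titles. The series text speaks of triplicates, and any further samples were not analysed here. Trizol-extracted total RNA was read by Illumina sequencing, per the labels' protocols. The submitters' processing notes name HTSeq 0.6.0, TopHat2 2.0.12 and Bowtie2 2.2.3 and the build mm9. Settings, including strand, are not given in the sources. Positions in the tables were nevertheless identical to GENCODE M21 on GRCm38 for 90.3% of 21922 matched genes (99.2% with starts within 5000 bp), so GRCm38 is the build named in the text.

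The authors deposited 4 tables, each pairing 1 cKO with 1 control library, with a raw read count per gene and library. The deposited normalized values are CPM, in which the authors gave a count of 0 the value of 0.5 reads. Each deposited fold change divides the CPM of the cKO library by that of the control. The deposited log2 values are its log2, and the deposited p-value comes from a test that no source used here names. All per-sample columns were used.

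Counts were joined by Ensembl ID (21981 genes, of which 18723 had a count, 0 included, for every library). The genotypes were compared by edgeR's quasi-likelihood test (two-sided; edgeR 4.0.16 in R 4.3.3) with TMM factors (1.03, 0.917, 1.15 and 0.919), Benjamini-Hochberg adjustment at 0.05 and filterByExpr (minimum count 10), with 2 residual degrees of freedom and a common dispersion of 0.425. The SE was computed from the log2 fold change and the F statistic. With 2 libraries on each side an exact permutation test cannot reach 0.05. The scripts were tested on simulated counts. List deviations are of log2(CPM + 0.5) with TMM-scaled CPM, and both-sided arrangements were judged on that scale; printed CPM are not TMM-scaled. Alternatives were other library scalings, no filter, DESeq2 1.42.0, limma-voom (limma 3.58.1), other marker denominators and leaving out each library. The other denominators and left-out libraries for the count of genes above both controls were chosen after seeing the data.

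Beyond the 10 genes, the text names up to 4 genes of each pathway list and up to 2 of each marker list from those with the highest mean CPM, Bach1, Hmox1 and the 8 genes of most similar pattern. Trem2, Vldlr and Cx3cr1, which stand outside that rule, were named after their values were seen. The values of C1qc, Spi1, Ptprc and Aif1 were likewise given after they were seen. The 10 genes, the lists and the tests were chosen with earlier results of these data known. Promoter sequences are from RefSeq (GRCm38.p6).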

Additional observations from a re-analysis of the deposited data

How the results depend on the processing

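No gene passed the adjusted p of 0.05 under any of the 10 alternatives, and 2 residual degrees of freedom limit what could pass. Leaving out 1 library at a time moved the median log2 fold change of the 10 genes from −1.70 (without cKO 5) to 0.50 (without cKO 2), and the single genes ranged from −2.06 to 0.24 for Spp1, −1.37 to 0.67 for Gpnmb, −1.73 to 0.83 for Lpl, −2.68 to 0.12 for Itgax, −1.85 to 0.62 for Clec7a, −1.86 to 0.34 for Igf1, −1.18 to 0.68 for Lgals3, −1.66 to 0.30 for Cd9, −1.54 to 0.48 for Cd63 and −1.67 to 0.52 for Apoe. With library sizes taken from the microglial markers, 8 of the 10 were positive, and the sign turned for Gpnmb (0.46), Clec7a (0.23), Igf1 (0.13), Cd9 (0.25), Cd63 (0.39) and Apoe (0.35), while the median of all genes tested moved to 1.23. With limma-voom, Lpl (−0.41) and Lgals3 (−0.24) turned negative; the cause was not tested. The number of the 10 genes with both cKO libraries on one side of both controls was 0 with TMM, library totals and DESeq2 size factors, and 5 per microglial marker read. That count of 5 became 4 without Cx3cr1 or with the geometric mean of the markers, and 5 to 9 when 1 library was left out. With 1 library left out the arrangement is easier to meet, and its share over all genes tested was not computed. The count was 0 with the C1q genes, Tyrobp, Laptm5, Aif1, Spi1 and Ptprc as denominator. The median log2 ratio to marker reads was 0.0396 with that shorter denominator, against 0.30, and 0.15 to 0.41 when 1 library was left out. Depth limited only Itgax, with 63 reads in cKO 2. No paired analysis was possible because the groups share no replicate number.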

Other observations

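Hmox1, the heme oxygenase gene that BACH1 is known to repress, was lowest in cKO 2 and highest in cKO 5, as were 8 of the 10 genes. It measured 558 CPM in control 1 and 590.2 in control 6, beside 189.9 and 1064 CPM in cKO 2 and cKO 5, with a log2 fold change of 0.16 ± 0.97 (SE; edgeR adjusted p 0.9997).

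Plin2, which coats lipid droplets, measured 538 and 779.8 CPM in control libraries, against 267 (cKO 2) and 793 (cKO 5). Abcg1, which exports cholesterol, measured 503 and 667 CPM in control libraries, against 305 (cKO 2) and 631 (cKO 5). Their log2 fold changes of −0.32 ± 0.76 and −0.35 ± 0.61 (SE) did not pass the edgeR test (adjusted p 0.9997 for both).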
